A study of Mus musculus with 24 samples.

Results

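The Acot cluster is a run of 6 genes for acyl-CoA thioesterases on mouse chromosome 12, in the order Acot2, Acot1, Acot4, Acot3, Acot5 and Acot6, all on the plus strand. Peaks of H3K27ac, the acetylation of lysine 27 on histone H3, were taken when they overlapped the body of one of these genes or the 10 kb on either side (build mm9, GENCODE vM1 annotation). These windows merged into 138149 bp in 3 blocks, chr12:85318811-85368621, chr12:85369329-85426970 and chr12:85431604-85462299. They hold 6 of 22350 protein-coding genes on the autosomes and X, and 32 of the 119348 regions obtained by merging overlapping peaks of all lists. The regions are named R1 to R32 in their order along the chromosome.

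The ChIP-seq data come from whole livers of mice aged 8 weeks, of the strains C57BL/6J, written B6, and CAST/EiJ, written CAST. Both are inbred and belong to different subspecies. There were 5 males and 5 females of each strain (20 livers) and 1 input sample of chromatin without antibody per group (4 inputs), with no treatment and no introduced allele. The authors merged the livers of a group, so 1 peak list stands for each group, no value has a replicate error, and no test of a sex or strain difference could be made. Groups follow the sample titles, since another label, the strain field, gives CAST/EiJ for all females and C57BL/6J for all males, against the titles of B6 females and CAST males. The list names and the study's methods go with the titles. In whole liver, a change in the share of a cell type and a change in acetylation per cell cannot be told apart.

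The lists held 79862 and 82181 peaks in B6 males and females, and 90228 and 84645 in CAST males and females, all past the authors' q-value limit of 0.05. The tissue was checked against markers: all 7 hepatocyte markers (Alb, Apoa1, Apob, Ttr, Tat, Hnf4a and Cps1) had a peak within 1 kb of a transcript start in every list. Of 4 Kupffer cell markers, 0 or 1 had such a peak, of 3 sinusoidal endothelial markers 2, of 3 stellate cell markers 1 or 2, and of 3 cholangiocyte markers 1, whereas 0 of 4 genes of other tissues had one in any list. Y chromosome peaks numbered 39 in B6 males and 0 in the other lists, so Y peaks check the sex label in B6 alone.

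Acyl-CoA thioesterases split acyl-CoA into a free fatty acid and coenzyme A, and thereby set how much activated fatty acid a compartment holds. The enzymes of this cluster arose by gene duplication and work in different places: Acot1 in the cytosol, Acot2 in mitochondria, and Acot3, Acot4, Acot5 and Acot6 in peroxisomes. Several of them are known targets of PPARA, the nuclear receptor that switches liver to fatty acid use in fasting. H3K27ac marks active promoters and enhancers, so a list of its peaks shows which stretches of the cluster carried active chromatin in a group of livers.

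Sequences are shown for regions and promoters on which the sex comparison turns, as read from the mm9 reference, plus strand, 5′ to 3′. The reference is B6; the sequence of CAST was not read. Lower case is plain sequence, and capitals mark a match to one of 3 motifs searched on both strands: the STAT site TTCNNNGAA, the CCAAT/enhancer box TTGCNNAA, and the DR1 element bound by PPARA, which is the half-site AGGTCA repeated in the same direction with 1 base between. No sequence shown holds more than 1 match. The first 3 sequences are the central 300 bases of the regions called in females of both strains and in males of neither, at chr12:85339338-85339637 (R6), chr12:85360937-85361236 (R12) and chr12:85373453-85373752 (R16), all between genes. The last is the central 300 bases of R26 in an intron of Acot3, at chr12:85395136-85395435, the region with the highest female-to-male ratio of summit coverage in B6.
R6: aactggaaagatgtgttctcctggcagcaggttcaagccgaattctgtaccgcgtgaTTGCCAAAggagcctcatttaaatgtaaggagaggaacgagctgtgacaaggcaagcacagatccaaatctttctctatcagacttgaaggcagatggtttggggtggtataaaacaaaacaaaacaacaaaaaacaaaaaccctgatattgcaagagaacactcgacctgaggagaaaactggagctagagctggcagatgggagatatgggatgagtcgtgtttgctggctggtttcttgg
R12: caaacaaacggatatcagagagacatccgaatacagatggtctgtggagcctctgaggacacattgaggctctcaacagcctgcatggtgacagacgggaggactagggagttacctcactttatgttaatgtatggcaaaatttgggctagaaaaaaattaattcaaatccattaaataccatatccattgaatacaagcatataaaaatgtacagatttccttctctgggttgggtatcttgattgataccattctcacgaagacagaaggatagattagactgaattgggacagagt
R16: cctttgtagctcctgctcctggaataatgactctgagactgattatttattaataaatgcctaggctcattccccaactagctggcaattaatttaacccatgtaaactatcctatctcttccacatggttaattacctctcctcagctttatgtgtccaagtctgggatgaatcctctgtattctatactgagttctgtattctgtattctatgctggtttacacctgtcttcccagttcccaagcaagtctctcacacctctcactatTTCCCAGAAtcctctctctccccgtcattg
R26: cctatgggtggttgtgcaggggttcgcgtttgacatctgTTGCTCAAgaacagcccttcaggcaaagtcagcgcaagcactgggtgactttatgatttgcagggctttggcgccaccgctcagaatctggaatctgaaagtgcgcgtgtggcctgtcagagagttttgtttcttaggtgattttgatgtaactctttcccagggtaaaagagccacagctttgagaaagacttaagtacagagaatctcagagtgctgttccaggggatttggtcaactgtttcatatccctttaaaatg

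The 250 bases before the annotated start are shown for the highest promoter peak of the cluster (Acot2, chr12:85328561-85328810), 2 further promoters with peaks, from the middle block (Acot4, chr12:85379079-85379328, and Acot3, chr12:85392844-85393093) and the promoter with no peak (Acot5, chr12:85410025-85410274).
Acot2: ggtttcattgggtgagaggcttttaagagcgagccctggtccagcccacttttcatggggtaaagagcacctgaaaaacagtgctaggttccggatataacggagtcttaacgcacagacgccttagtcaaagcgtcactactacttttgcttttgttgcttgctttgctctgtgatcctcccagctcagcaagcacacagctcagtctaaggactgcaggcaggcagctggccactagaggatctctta
Acot4: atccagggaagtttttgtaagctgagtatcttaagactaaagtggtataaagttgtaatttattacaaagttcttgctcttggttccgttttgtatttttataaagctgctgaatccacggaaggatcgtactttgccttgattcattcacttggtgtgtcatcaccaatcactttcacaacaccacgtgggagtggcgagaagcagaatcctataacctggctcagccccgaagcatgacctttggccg
Acot3: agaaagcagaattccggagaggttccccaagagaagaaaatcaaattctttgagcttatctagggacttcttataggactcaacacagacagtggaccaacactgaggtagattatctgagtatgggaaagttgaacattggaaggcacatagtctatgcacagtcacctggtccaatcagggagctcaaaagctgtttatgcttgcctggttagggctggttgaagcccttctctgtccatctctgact
Acot5: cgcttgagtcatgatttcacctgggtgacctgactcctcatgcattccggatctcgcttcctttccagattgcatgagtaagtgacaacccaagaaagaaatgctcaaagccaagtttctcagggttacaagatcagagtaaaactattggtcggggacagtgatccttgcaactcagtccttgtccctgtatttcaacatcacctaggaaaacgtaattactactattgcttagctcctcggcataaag

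Over the 300 bases from 250 before to 50 after the start, mm9 and the RefSeq promoter table (GRCm38.p6) were identical for these 4 genes. Acot1 was in that table without an identical sequence, and Acot6 was not among its entries. The STAT site was present in 3 of 32 region centres (R16, R21 and R25), or 9.38%, against 9.26% of the centres of all 119345 regions with known bases. The CCAAT/enhancer box was found in 4 of 32 (R6, R10, R26 and R31), or 12.5%, against 12.9%. The DR1 element was found in 0 of 32, and in 0.0955% of all regions. Among the 6 promoters, the CCAAT/enhancer box occurred at Acot1 alone, in 2 copies, and the other motifs at none. Across 22345 promoters of protein-coding genes, 10.3% held the box, 7.94% the STAT site and 0.0582% the DR1 element. The share of region centres with each motif was thus close to that of all regions, and a match or its absence says only whether these letters are in the window.

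The first comparison asked how much of the cluster was acetylated in each group. Females of both strains had more peaks and more bases under peaks than males. B6 males had 14 peaks in the cluster, B6 females 26, CAST males 15 and CAST females 26. These peaks covered 11075 bp in B6 males (8.02% of the windows), 17430 bp in B6 females (12.6%), 10091 bp in CAST males (7.30%) and 17358 bp in CAST females (12.6%). Both female lists lay above both male lists, and the female lists were close to each other. The share of gene windows or regions in which both female lists exceed both male lists was not counted. Here and below, that order is a description. The female-to-male ratio of covered bases was 1.57 in B6 and 1.72 in CAST, and that of peak number was 1.86 and 1.73. Between strains, CAST over B6 was 0.911 in males and 0.996 in females.

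Signal was summed as fold enrichment times bases covered, an index because the authors give the enrichment at the summit. It was 46700 and 59529 in B6 males and females, and 42158 and 62377 in CAST males and females. Females were again higher, by 1.27 in B6 and 1.48 in CAST. Most of the excess lay outside the genes themselves. Within gene bodies alone, B6 males had 11 peaks over 6284 bp and B6 females 12 over 7325 bp, while CAST males had 10 over 5481 bp and CAST females 12 over 7791 bp.

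The members did not share the difference equally. Acot2, the mitochondrial enzyme at the upstream end, had 1978 and 4242 bp covered in B6 males and females, and 2244 and 3988 in CAST males and females. Acot1, the cytosolic enzyme, had 1713, 3474, 1418 and 2693 bp in the same order of lists. For both genes each female list held more than either male list, and the ratios were 2.14 in B6 and 1.78 in CAST for Acot2, and 2.03 and 1.90 for Acot1.

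Acot4 and Acot3, peroxisomal enzymes, have windows that overlap and share 6 regions. Acot4, which acts on succinyl-CoA and other dicarboxylic acyl-CoAs, had 4932 and 7221 bp covered in B6 males and females, and 3842 and 7794 in CAST males and females. Acot3, which acts on long-chain acyl-CoAs, had 2749, 5046, 1457 and 3991 bp in that order. The groups did not overlap by sex for either gene, an order whose share over all gene windows was not counted. The ratio was 1.46 in B6 and 2.03 in CAST for Acot4, just under the 1.5-fold limit in B6, and 1.84 and 2.74 for Acot3.

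Acot5 had 0 peaks in B6 males, CAST males and CAST females, and 2 peaks over 578 bp in B6 females, so no ratio was formed. Acot6, which acts on methyl-branched acyl-CoAs, had 2782 and 2237 bp in B6 males and females, and 2815 and 3244 in CAST males and females. The sexes overlapped at Acot6: the ratio was 0.804 in B6 and 1.15 in CAST. Over its gene body alone, covered bases were 1372, 805, 1605 and 1384 bp in the same order, lower in females of both strains. The Acot6 window also holds the start of the neighbouring gene Dnalc1, which supplied 1316, 1240, 1136 and 1358 bp in the lists above. R29, upstream of the Acot6 start, supplied 331 bp in CAST females alone.

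**Figure D1:**
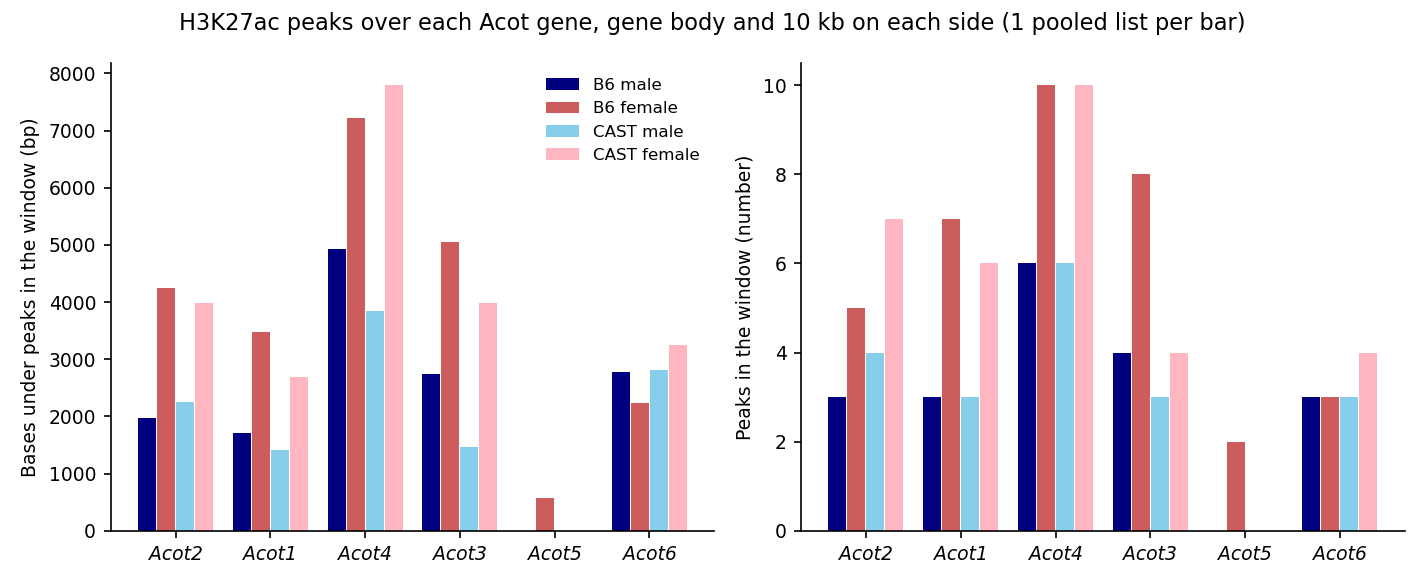
Bases under H3K27ac peaks (left, bp) and peaks (right, number) in the window of each Acot gene, in chromosome order, with 1 bar per pooled peak list and no error because each list is 1 value. Acot2, Acot1, Acot4 and Acot3 have higher bars in females of both strains, Acot5 has peaks in B6 females only, and Acot6 shows no common direction.

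These ratios were set beside those of all protein-coding gene windows with peaks. A window with peaks in 1 sex alone counted as past the 1.5-fold limit, for members and for all genes alike. In B6, 4 of the 6 members (Acot2, Acot1, Acot3 and, in this way, Acot5) had at least 1.5-fold more covered bases in females, against 6.1% of 16580 gene windows, and 0 had 1.5-fold more in males, against 7.26%. In CAST, 4 members (Acot2, Acot1, Acot4 and Acot3) passed the limit toward females, against 3.66% of 16760 windows, and 0 toward males, against 10.7%. Among genes with peaks in both sexes, the median ratio was 0.970 in B6 and 0.927 in CAST. The B6 ratios of Acot2, Acot1, Acot3 and Acot4 stood at percentiles 98.8, 98.6, 98.0 and 95.5, and their CAST ratios at 98.8, 99.0, 99.7 and 99.2. Acot6 stood at 15.0 and 89.8. Neighbouring members share regions, so they do not count as separate observations.

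**Figure D2:**
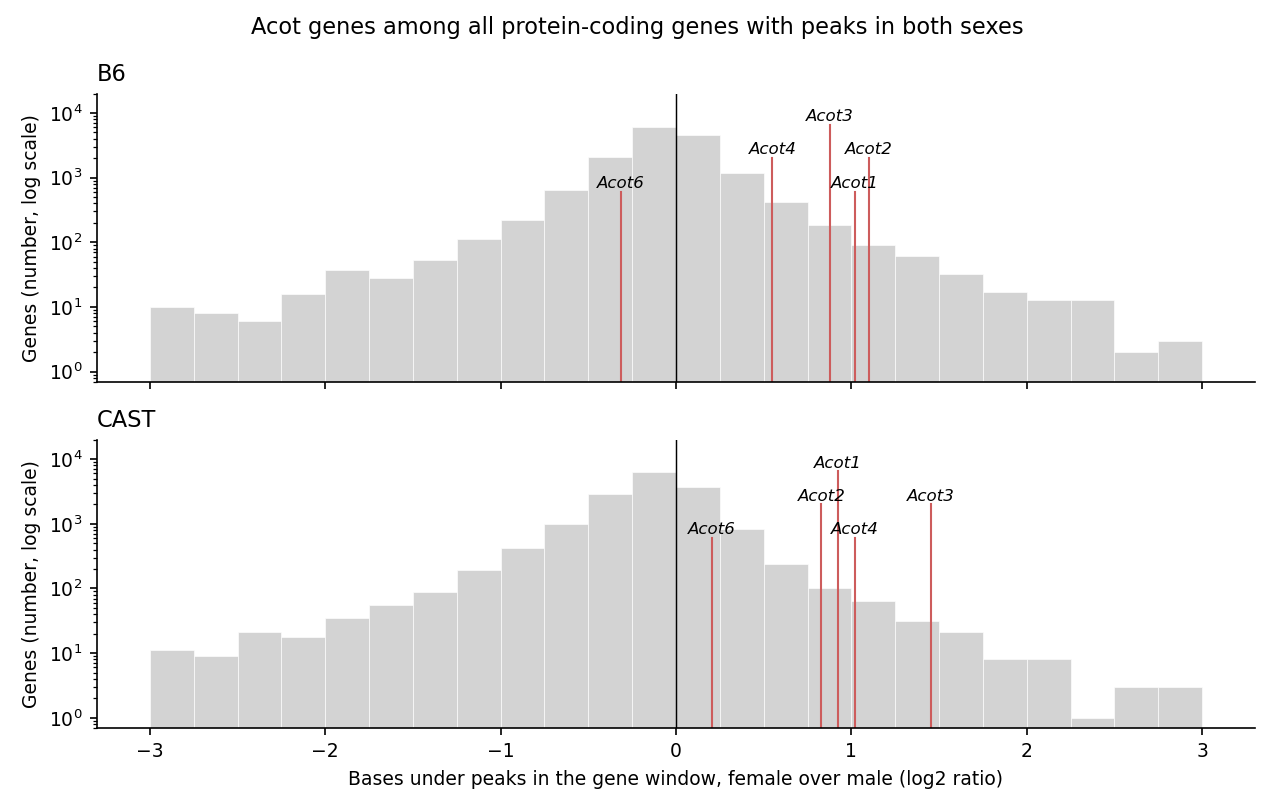
Number of protein-coding genes (log scale) by the log2 female-to-male ratio of bases under peaks in their windows, with B6 above and CAST below; red lines mark the Acot genes with peaks in both sexes, and ratios beyond the axis are placed in the end bins. Acot2, Acot1, Acot4 and Acot3 lie to the right of the bulk of genes in both strains, from percentile 95.5 to 99.7, and Acot6 lies within it.

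The gain in peak number was made up of regions called in females alone. Of 26 cluster regions called in B6, 12 were called in females only, which is 46.2%, against 17.5% of all regions called in B6. Regions called in males only numbered 0, against 17.4%. In CAST, 11 of 25 were female-only (44.0%, against 14.1% of all regions) and 0 were male-only (against 21.5%). In each strain 14 regions were called in both sexes. All 32 regions were called in at least 1 female list, against 81.6% of all regions, and 16 in at least 1 male list, against 82.4%. These counts moved with the settings. With gene bodies alone, female-only regions numbered 2 in B6 and 3 in CAST. With a fold enrichment of at least 3, female-only regions fell to 7 in B6 and 4 in CAST and 2 were male-only in B6, and when a shared peak had to overlap by 50% of both peaks, 3 peaks were male-only in B6 and 2 in CAST.

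R6, R12 and R16 were female-only in both strains, which is 3 of 32 regions, against 1.23% of all regions. They are 3 of the 12 female-only regions of B6, against 9.26% of all female-only regions of that strain, and 3 of the 11 of CAST, against 10.8%. R6 lay 10.2 kb downstream of the Acot2 start, with 69 fragments at its summit in B6 females and 53 in CAST females. R12 lay 10.4 kb downstream of the Acot1 start, with 64 and 46 fragments. R16 lay 5.52 kb upstream of Acot4, with 57 and 55. Their scores ranked at percentiles 59.9, 49.1 and 46.7 of the B6 female list and 48.6, 35.0 and 38.7 of the CAST female list, that is, near or below the middle. A region is listed as female-only wherever the male peak missed the authors' q-value limit, and the signal below that limit is not in the lists. Another 12 regions (37.5%) were called in all 4 lists, against 40.4% of all regions, and 13 of 32 in a single list, against 32.4%.

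To compare regions called in both sexes, the number of fragments at each summit was recovered. The peak caller's fold enrichment and p-value are both functions of the fragments at the summit and of a background, and a whole number of fragments solved both for 99.96% to 99.99% of peaks in the 4 lists (within 0.1 of the step to the next whole number). This measure was chosen after the data were seen. Counts were divided by the background of the list, which was 18.4 and 18.7 fragments in B6 males and females, and 17.8 and 16.8 in CAST males and females. Intervals are exact binomial 95% intervals and cover counting error only.

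By this measure shared regions also had more signal in females. Of the 14 shared regions in B6, 13 were higher in females, against 42.8% of 59065 shared regions over the genome, and 5 by at least 1.5-fold, against 1.62%. None was 1.5-fold higher in males, against 2.95%. In CAST, 12 of 14 were higher in females, against 28.6% of 62024 regions, and 6 by at least 1.5-fold, against 1.41%, with 0 toward males against 5.14%. The median female-to-male ratio in the cluster was 1.38 in B6 and 1.48 in CAST, beside 0.970 and 0.893 over all shared regions. The counting interval lay above 1 in 7 regions of B6, against 4.4% of all shared regions, and in 9 of CAST, against 2.77%. It lay below 1 in 0 of both, against 8.81% and 23.2%.

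**Figure D3:**
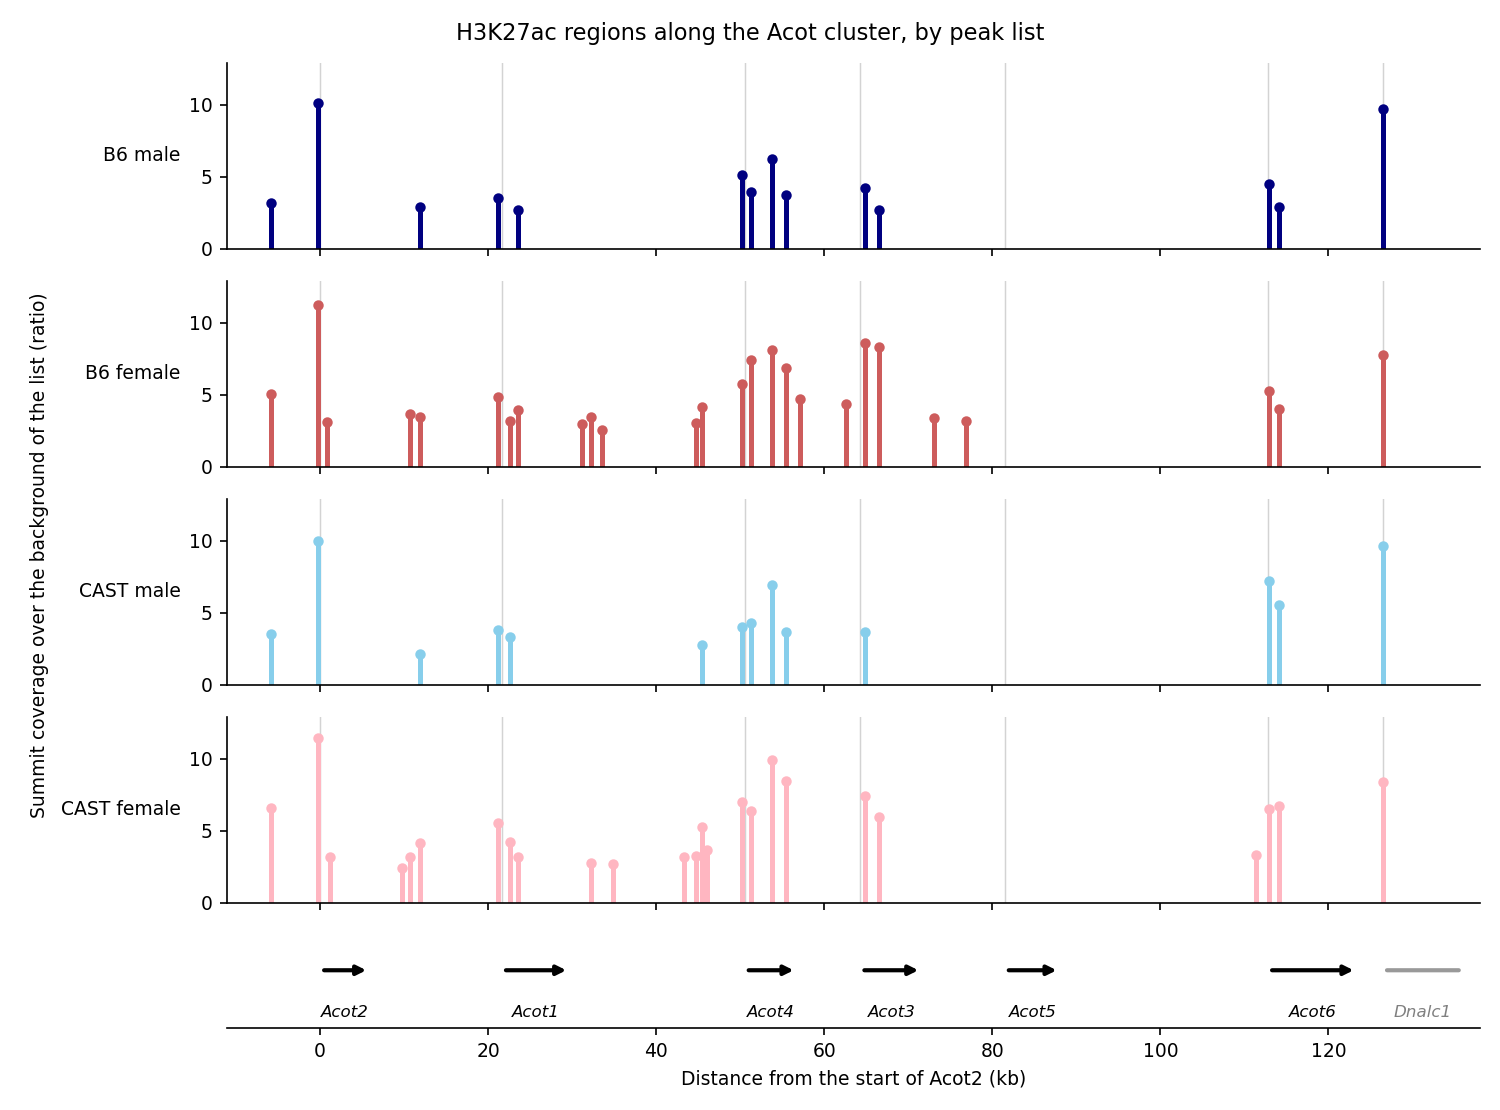
Fragments at the summit over the background of the list (ratio) for every region of the Acot cluster, by distance from the start of Acot2 (kb), with 1 row per pooled peak list; arrows show the Acot genes, the grey line the first part of Dnalc1, and thin vertical lines the gene starts. The female rows hold 26 regions in B6 and 25 in CAST, against 14 in the males of either strain, and the widest gap between the sexes at a shared region is at R26 in Acot3 in B6 and at R22, at the 3′ end of Acot4, in CAST.

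Along the cluster, the difference began upstream of Acot2. R1, a region between genes and 5.15 kb upstream of the Acot2 start, had 58 and 95 fragments at its summit in B6 males and females, and 63 and 111 in CAST males and females. Its ratio was 1.61 in B6 (interval 1.15 to 2.27) and 1.86 in CAST (1.35 to 2.58). Both female lists were above both male lists. R1 lies within 1 kb of the start of Gm17673, a protein-coding gene on the minus strand, so it cannot be given to Acot2 alone. R2, over the Acot2 start, was the highest peak of an Acot promoter, with 186, 210, 178 and 193 fragments in the same order of lists. Its ratios of 1.11 (0.906 to 1.36) and 1.15 (0.930 to 1.41) were within counting error.

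R8, over the Acot1 start, had 65 and 91 fragments in B6 males and females, and 67 and 93 in CAST males and females. The ratio was 1.37 in B6 (0.989 to 1.92) and 1.47 in CAST (1.06 to 2.04), so the interval reached 1 in B6 alone. R7, between Acot2 and Acot1, had 53, 65, 38 and 70 fragments and a ratio of 1.20 (0.825 to 1.76) in B6 and 1.95 (1.29 to 2.97) in CAST. Around Acot1, 4 of 7 regions called in B6 and 3 of 6 called in CAST were female-only. Of all regions called in a strain, 17.5% were female-only in B6 and 14.1% in CAST.

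Over Acot4, 4 regions followed each other from the start to the 3′ exons. R19, at the start, had 94 and 108 fragments in B6 males and females, and 71 and 118 in CAST males and females, with ratios of 1.13 (0.848 to 1.5) and 1.76 (1.30 to 2.39). R20, over coding exon sequence 0.541 kb downstream of the start, had 73, 139, 76 and 107, with ratios of 1.87 (1.40 to 2.52) and 1.49 (1.10 to 2.02). R21, further into the gene, had 114, 152, 123 and 167, with ratios of 1.31 (1.02 to 1.68) and 1.43 (1.13 to 1.83). All of these were higher in both female lists than in either male list.

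R22 covered the last coding exon sequence and the UTR of Acot4, together with an exon of the antisense lincRNA 4732463B04Rik. It had 69 and 128 fragments in B6 males and females, and 65 and 142 in CAST males and females. The ratios were 1.82 (1.35 to 2.48) and 2.31 (1.71 to 3.15), the latter the highest of the shared regions in CAST. The region was also wider in females, at 1495 bp against 1041 bp in B6 and 1443 bp against 272 bp in CAST. Width did not follow coverage everywhere: R19 was narrower in females, at 457 bp against 925 bp and 532 bp against 829 bp, and so was R31 over Acot6, at 446 bp against 1005 bp and 1036 bp against 1243 bp.

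By summit coverage the Acot3 promoter had a similar ratio in both strains, whereas the authors' fold enrichment there was lower in females of B6 and higher in females of CAST. R25, over the Acot3 start, had 77 and 161 fragments in B6 males and females, and 65 and 125 in CAST males and females. The ratio was 2.05 (1.56 to 2.73) in B6 and 2.03 (1.49 to 2.79) in CAST, at percentiles 99.9 and 99.8 of all shared regions. The ratio of fold enrichment was 0.870 in B6 and 1.13 in CAST. R26, in an Acot3 intron 1.84 kb downstream, had 50 and 155 fragments in B6 males and females, no call in CAST males, and 100 in CAST females. Its B6 ratio of 3.04 (2.2 to 4.28) was the highest of the cluster. The lincRNA 4732463B04Rik starts on the minus strand between R25 and R26, within 1 kb of each, so neither region can be given to Acot3 alone.

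Acot5 had no peak within 1 kb of its start in any list. The only regions in its window, R27 and R28, lay 8.22 kb and 4.49 kb upstream of the start and had 63 and 59 fragments in B6 females. R30, over the Acot6 start, had 83 and 98 fragments in B6 males and females, and 128 and 109 in CAST males and females. Its ratios of 1.16 (0.857 to 1.57) in B6 and 0.900 (0.690 to 1.17) in CAST were within counting error. R31, over coding sequence of Acot6, had 53, 75, 99 and 113, with ratios of 1.39 (0.965 to 2.01) and 1.21 (0.913 to 1.60). At both regions CAST lists were higher than the B6 list of the same sex. R32, over the start of Dnalc1, was lower in females of both strains, with 178, 145, 171 and 141 fragments and ratios of 0.800 (0.638 to 1.00) and 0.871 (0.692 to 1.10).

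The authors' own fold enrichment gave another picture of the same regions. Of 14 shared regions, 9 in B6 had the higher fold enrichment in females, against 52.8% of all shared regions, and 7 in CAST, against 37.4%. By at least 1.5-fold, 0 were higher in females of B6 (against 0.564% of 59216 shared regions) and 0 in males (against 0.753%). In CAST 1 region, R7, passed toward females (against 0.399% of 62392) and 0 toward males (against 1.44%). The median ratio was 1.05 in B6 and 1.01 in CAST, beside 1.01 and 0.956 over all shared regions. At R21 the ratio of fold enrichment was 0.736 in B6 and 0.745 in CAST, whereas the ratio of summit coverage was 1.31 and 1.43.

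The measures differ in their denominator, the local background that MACS2 uses wherever it exceeds that of the list. At R21 the local background was 32.5 and 59.7 fragments in B6 males and females, and 28.6 and 52.8 in CAST males and females. At R25 it was 18.4, 45.2, 17.8 and 30.7. At R30 it was 18.4, 18.7, 25.8 and 26.5, so the sexes had similar values at Acot6. Over all peaks, the local background was more than 1.2 times that of the list for 26.1% to 30.6% of peaks with under 1000 bp of peaks of the same list within 5 kb of the summit. With over 3000 bp it was so for 99.8% to 99.9%. The raised background moved with the density of peaks of the same list. The study's methods name input samples, but the lists do not show which control the local background came from, so what it and the fold enrichment are relative to is uncertain. Its part in the fold enrichments of the cluster was not tested.

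**Figure D4:**
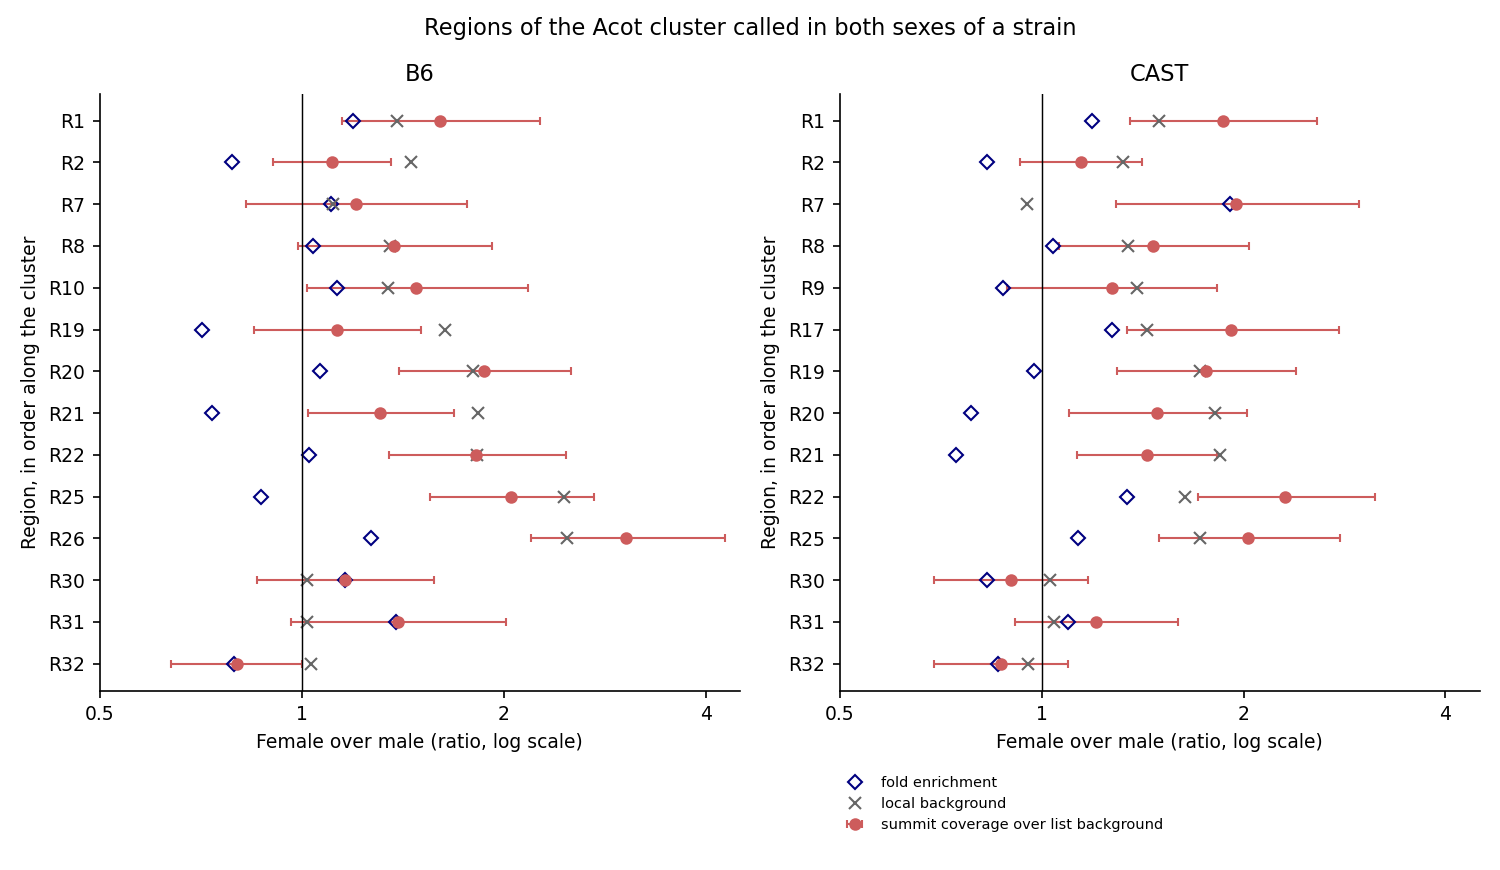
Female-to-male ratio (log scale) for each region called in both sexes of B6 (left) and CAST (right), in order along the Acot cluster: summit coverage over the background of the list with its 95% counting interval (red circles and bars), the authors' fold enrichment (open diamonds) and local background (crosses). Coverage lies above 1 in 13 of 14 regions in B6 and 12 of 14 in CAST, while fold enrichment straddles 1 where the local background is higher in females.

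Near-identical copies can lose reads when only uniquely mapped reads are kept. Of all 50-base words in the span from the first to the last window, 88.5% occurred once in mm9, and 3.98% recurred within the cluster. The share of unique words was 80.1% in the body of Acot2, 82.9% in Acot1, 91.8% in Acot4, 93.7% in Acot3, 91.3% in Acot5 and 96.0% in Acot6. Within 1 kb of the start it was 92.7% at Acot2, 86.8% at Acot1 and 83.8% at Acot4, the lowest. It was 100% at Acot3, 85.7% at Acot5 and 86.0% at Acot6. The words are those of mm9, whereas CAST reads were mapped to a CAST genome, and the part of lost reads in the missing Acot5 peak was not tested. The regions themselves ranged from 90.7% (R3) to 100% unique words.

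Other genes of fatty acid handling were compared by the same rule. Among 12 other acyl-CoA thioesterases and relatives, 1 had at least 1.5-fold more covered bases in B6 females (Acnat2, an acyltransferase, 1310 bp in males and 3093 in females). In CAST, 2 had 1.5-fold more in males, namely Acot7 (8150 and 4199 bp) and Acnat1 (6102 and 3912 bp). Of 20 genes of peroxisomal beta-oxidation, 0 passed in B6 and 1 passed toward males in CAST (Abcd3, a peroxisomal importer of acyl-CoA, 10447 and 6475 bp). Of 16 genes of mitochondrial beta-oxidation, 0 passed in B6 and 1 toward males in CAST (Acads, which starts the oxidation of short chains, 2520 and 1633 bp). The median ratios of the lists were 0.977, 1.00 and 0.897 in B6 and 0.979, 0.914 and 0.895 in CAST. Of all gene windows, 6.1% passed toward females and 7.26% toward males in B6, and 3.66% and 10.7% in CAST. No gene of these lists passed in the same direction in both strains. Acot2, Acot1 and Acot3 passed toward females in both, against 1.04% of 16233 gene windows with peaks in both strains.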

How the data were processed

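H3K27ac ChIP-seq peak lists of mouse liver were used, 1 per group of 5 livers. According to the study's methods, the authors mapped B6 reads to mm9 and CAST reads to a CAST genome with Bowtie2, kept unique reads, called peaks with MACS2 against input and converted CAST coordinates to mm9. The authors deposited for each peak a score (10 times the −log10 q-value), a fold enrichment at the summit (a ratio), and the −log10 of the p-value and q-value. Here q-values were read from the score. Read depth by liver was not analysed here, so precision is given as counting error of the fragments at a summit.

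Peaks were intersected with gene windows and merged into regions when they shared at least 1 bp. Fragments at the summit were solved from fold enrichment and p-value and tested on simulated peaks. Differences are descriptions, with a limit of 1.5-fold. Python 3.11.15, numpy 2.4.6, pandas 2.3.3 and scipy 1.17.1 were used. The members and lists were chosen with earlier results of these data known. Named genes were the members, genes within 100 kb, the 5 genes most like the cluster and, per pathway list, up to 4 genes past 1.5-fold in both strains; the pathway genes named in the text, past it in 1 strain, were added after their values were seen. Alternatives changed the window, list length, thresholds, merging, overlap and fold limit. Livers and inputs by themselves were not analysed here.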

Additional observations from a re-analysis of the deposited data

Results flagged for a closer look

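In its window with 10 kb on each side, Acot6 had opposite directions in the strains. Its covered bases had a female-to-male ratio of 0.804 in B6 and 1.15 in CAST. Over the gene body alone, covered bases were lower in females of both strains. They were 1372 and 805 bp in B6 males and females, and 1605 and 1384 in CAST males and females. The region over the Acot6 start, R30, went the other way from the window. Its ratio of summit coverage was 1.16 in B6 and 0.900 in CAST, and both counting intervals include 1. With 1 list per group, the difference between strains was not tested.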

How the results depend on the processing

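Each value rests on 1 pooled list per group, so neither the spread between livers nor a left-out liver could be examined. No paired analysis was possible because the livers of a group are merged in its list and no test was made. Of 104 values computed under alternatives for 20 results, 86 stayed on the same side and within 1.5 times. Some of these were fixed in advance. A count of 0 past 1.5-fold is also 0 past 2-fold, and 0 male-only regions stay 0 in gene bodies, a part of the windows. With gene bodies alone, the female-to-male ratio of peak number in B6 was 1.09, female-only regions numbered 2 in B6 and 3 in CAST, and the covered-base ratio of CAST over B6 in females was 1.06. With 25 kb on each side, 1 region was male-only in CAST. With a −log10 q-value of at least 5, the ratio of CAST over B6 in females was 1.06. With a fold enrichment of at least 3, female-only regions numbered 7 in B6 and 4 in CAST, 2 were male-only in B6, and CAST over B6 was 1.07 in males and 1.13 in females. With peaks up to 500 bp apart merged, 7 regions were female-only in CAST. With an overlap of 50% of both peaks, 3 peaks were male-only in B6 and 2 in CAST, and in bins of 1 kb 1 was male-only in CAST. With a 2-fold limit, 2 regions in B6 and 2 in CAST were higher in females by summit coverage, and 0 in CAST by fold enrichment. The cause of these changes was not tested. The female-to-male ratios of covered bases, peak number and signal stayed above 1 under all 6 alternatives in both strains. The alternatives for summit coverage were chosen after seeing the data.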

Other observations

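Peaks at the starts of the 3 neighbouring genes Numb, 2410016O06Rik and C130039O16Rik, outside the windows, were high in every list. At Numb, a regulator of Notch signalling, the summit held 391 and 425 fragments in B6 males and females, and 445 and 337 in CAST males and females. 2410016O06Rik had 347, 366, 357 and 275, and C130039O16Rik 384, 391, 447 and 309. At Pnma1 there were 47 fragments in B6 males, 54 and 48 in CAST males and females, and no call in B6 females. The pseudogene Gm8385 between Acot5 and Acot6 had no peak at its start, and the peak within 1 kb of the start of Gm17673, upstream of Acot2, was R1.

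The protein-coding genes whose relative pattern of signal over the 4 lists was most like that of the cluster, by distance of log2 values after dividing each gene by its own mean over the lists, among 15478 genes, were Ttn (0.0678), Cep55 (0.0859), Fgf17 (0.101), Trim24 (0.112) and Fam126a (0.141). The likeness was computed on signal and not on covered bases alone. Trim24 had 6550 and 10233 bp covered in B6 males and females, and 4907 and 9157 in CAST males and females. In the same order, Ttn had 755, 833, 524 and 1517 bp and Cep55 2115, 2609, 1681 and 2209. Fgf17 had 887, 1138, 698 and 983 bp and Fam126a 3187, 3667, 2738 and 4183. The likeness is of pattern and not of level, rests on 4 values per gene and is a description.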
